A study of Mus musculus with 26 samples.

Results

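The response of wild-type (WT) mouse neural stem and progenitor cells to dexamethasone (Dex), a synthetic glucocorticoid, was read from 12 arrays of the 26 in the series. These were all arrays that the labels give as WT: 6 cultures, numbered 1 to 6, each with 1 array after vehicle and 1 after Dex. All 19505 genes with a symbol were measured. Cells came from the C57BL/6 telencephalon at postnatal day 0, which the labels also call fetal, and were grown with EGF and FGF-1. After passage 3 they received 100 nM Dex or ethanol for 4 h. Both arms of a culture therefore share strain, growth factors, passage and collection time, and differ in the steroid and its solvent control. Each culture came from 1 animal, both sexes were used, and no array carries a sex. The other 14 arrays are 7 SOX2 knockout (KO) cultures given the same treatments; how the gene was removed is not given in the sources used here. Culture 4 responded opposite to its labels. Effects below come from the other 5 cultures unless said otherwise; the values with culture 4 stand beside them for the leading genes, the list medians and all counts of calls.

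Glucocorticoids cross the cell membrane and bind the glucocorticoid receptor, a ligand-activated transcription factor encoded by Nr3c1 that is held in the cytoplasm by Hsp90 and co-chaperones. The bound receptor enters the nucleus, where it binds DNA as a dimer at palindromes of a short half-site, or acts through other factors such as AP-1 and NF-kappa-B. In neural progenitors, glucocorticoids are known for effects on proliferation and on later differentiation, and their early targets include feedback genes such as Fkbp5 and Tsc22d3 and the clock gene Per1.

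The half-site of the receptor's DNA element (AGAACA on one strand, TGTTCT on the other) was sought on both strands of the 250 bases before each RefSeq start (mouse build GRCm38.p6). The windows shown belong to Fam107a, Tsc22d3 and Mgll, 3 genes that rose with Dex and have a window that holds the half-site. They are printed 5′ to 3′ toward the gene, with half-sites in capitals.
Fam107a, chr14:8309780-8310029, minus strand: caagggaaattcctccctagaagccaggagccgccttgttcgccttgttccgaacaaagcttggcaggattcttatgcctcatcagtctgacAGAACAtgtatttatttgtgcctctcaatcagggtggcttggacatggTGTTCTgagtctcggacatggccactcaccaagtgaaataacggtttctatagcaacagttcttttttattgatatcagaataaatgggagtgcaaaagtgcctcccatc
Tsc22d3, chrX:140600523-140600772, minus strand: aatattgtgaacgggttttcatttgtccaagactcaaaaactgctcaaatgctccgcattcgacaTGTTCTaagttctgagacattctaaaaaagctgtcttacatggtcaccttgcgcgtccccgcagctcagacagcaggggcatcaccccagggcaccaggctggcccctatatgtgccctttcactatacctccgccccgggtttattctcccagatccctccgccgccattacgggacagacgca
Mgll, chr6:88724162-88724411, plus strand: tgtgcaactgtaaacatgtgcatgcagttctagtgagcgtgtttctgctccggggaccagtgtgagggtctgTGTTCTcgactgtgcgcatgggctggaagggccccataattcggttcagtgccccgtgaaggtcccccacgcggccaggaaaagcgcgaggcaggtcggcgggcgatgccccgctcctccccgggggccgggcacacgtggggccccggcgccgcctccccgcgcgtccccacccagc
Fam107a carries both orientations, 158 and 110 bases before this start, and 2 of its 3 listed starts have a half-site. The Tsc22d3 site lies 185 bases before the start shown, and 1 of its 3 listed starts has a half-site. The Mgll site lies 178 bases before the start shown, and 1 of its 2 listed starts has one. Of the 33 genes that rose, 26 have an entry, with 43 windows. A half-site is present in 8 of these windows (18.6%), against 13.5% of the 19143 windows of all genes tested. Counted by gene, 6 of 26 (23.1%) have one, against 15.7% of the 15691 genes with an entry. The palindrome of both half-sites spaced by 3 bases was sought with the outermost base of either half-site left free. None of the 43 windows holds such a match, which 5 windows of all genes (0.0261%) hold. A match is a run of letters and not a binding site, and windows this short leave out distant elements.

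Values were taken as log2, and a level or difference below is in log2 units. WT array medians lay between 6.47 and 6.83. Upper quartiles were 10.09 to 10.43 in cultures 1 to 3 and 9.58 to 9.77 in cultures 4 to 6. The Y-linked gene Eif2s3y divided the cultures in the same way, at 12.13 or above in cultures 1 to 3 and at 3.65 or below in cultures 4 to 6. Several progenitor markers were high on every WT array, with Sox2 at 12.17 to 14.39, Nes at 12.04 to 13.57 and Fabp7 at 18.58 to 19.42. Fut4 of the same list was low (3.20 to 4.04), and Prom1 ranged from 5.69 to 9.16. Oligodendrocyte-lineage factors were also high (Olig1 15.17 to 17.06), and Gfap of astrocytes ranged from 5.13 to 11.36. Single genes of microglia (Cx3cr1 3.81 to 5.42), endothelium (Cldn5 2.99 to 3.90) and mature neurons (Rbfox3 4.69 to 6.34) stayed below the median level on every WT array. Other members of these lists were higher, such as Ptprc of microglia (6.34 to 7.15), Flt1 of endothelium (5.94 to 8.65) and Map2 of neurons (14.49 to 15.59). Without culture 4, the median vehicle level was 11.74 for the progenitor list and 7.22 for neurons. It was 4.58 for microglia and macrophages and 4.68 for endothelium, against 6.77 for all genes. In such bulk cultures, fewer cells of a type and less RNA per cell cannot be told apart.

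The paired comparison asks which genes Dex changes within 4 h. In the 5 cultures without culture 4, 33 genes rose and 2 fell in limma's paired test (Benjamini-Hochberg adjusted p under 0.05), which is 0.169% and 0.0103% of the genes tested. The rises ran from 0.81 to 5.42 with a median of 1.26. They exceeded 1 unit, a doubling, in 26 genes and 2 units in 5: Fam107a, Kcnn2, Per1, Cftr and Klf9. All 33 were higher in 5 of 5 cultures, which their selection on these same cultures favours. This covers cultures 1 to 3 and also cultures 5 and 6, the 2 sides of the split in upper quartile and Eif2s3y. Over all genes 982 (5.03%) were higher in 5 of 5 cultures and 967 (4.96%) lower. In 18 of the 33, every Dex level also lay above every vehicle level, as in 75 of all genes (0.385%), and the selection favours this as well. Responses of 1 unit or more were rare and nearly all upward: 35 genes of the 19505 were that much higher and 1, Clic5, that much lower. At the threshold, the phosphatase gene Ptprj lay just inside (adjusted p = 0.0457) and the sulfotransferase gene Chst2 just outside (adjusted p = 0.0616). The number of calls depends on the fit: with culture 4 it was 0, and leaving out 1 more culture gave 13 (without culture 1) to 19 (without culture 6), the fit without the block 5, and a variance prior that follows the level 158 (0.810%), with 107 higher (0.549%) and 51 lower (0.261%). With each further culture left out in turn, 12 of the 35 genes passed throughout and 23, both falls among them, were lost at least once.

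**Figure D1:**
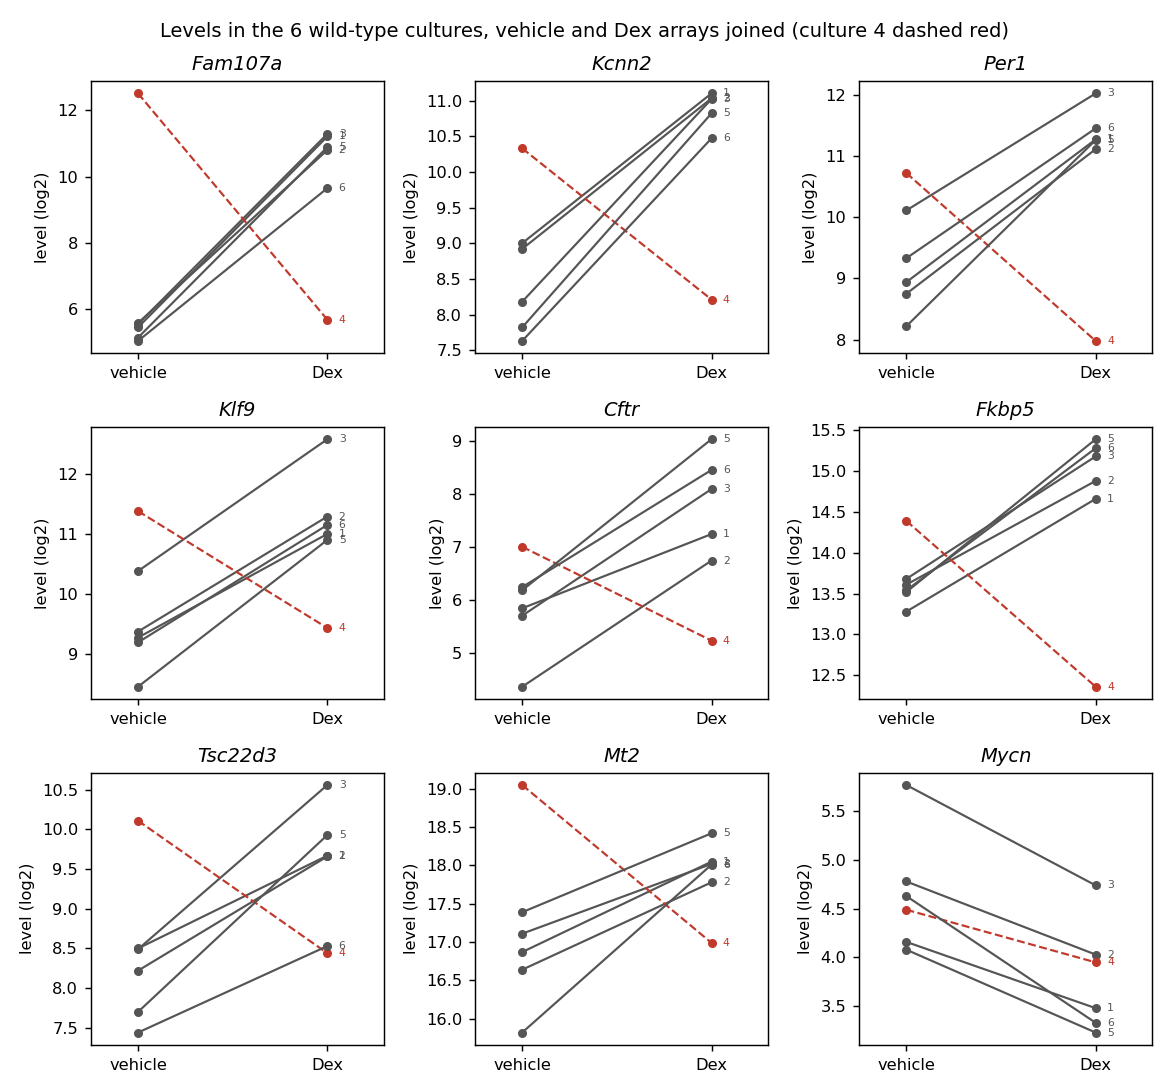
Levels (log2, y axis) of single genes with vehicle and Dex, 1 line for each WT culture, with culture 4 drawn apart. Lines of the other 5 cultures climb for the genes that rose, with Fam107a from 5.04-5.58 to 9.65-11.29, while culture 4 runs the other way; Mycn is lower with Dex in all 6.

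The largest rise was in Fam107a, a gene known as stress- and glucocorticoid-responsive whose product acts on the actin cytoskeleton. With vehicle its level was 5.45, 5.58, 5.55, 5.14 and 5.04 in cultures 1, 2, 3, 5 and 6, and with Dex 11.21, 10.80, 11.29, 10.89 and 9.65. The groups are far apart, and the lowest Dex level exceeds the highest vehicle level by several units. The mean moved from 5.35 ± 0.25 to 10.77 ± 0.66 (SD, n = 5). This is a rise of 5.42 ± 0.18 (limma's moderated SE, as for the differences below) or 42.7-fold (limma adjusted p = 5.00e-06), and 3.38 ± 1.42 with culture 4. In culture 4 the level was 12.51 on the array labelled vehicle and 5.68 on that labelled Dex.

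This list and those below were chosen with earlier results of these data known, so their counts of calls depend on that choice. Over all genes 0.169% rose and 0.0103% fell, shares to set beside each list. Of 10 measured channel and transporter genes, 2 rose and none fell. The list median was 0.11, and 0.03 with culture 4, against 0.004 and 0.003 over all genes. Kcnn2, a small-conductance calcium-activated potassium channel, went from 9.00, 8.92, 8.18, 7.82 and 7.63 with vehicle to 11.10, 11.03, 11.02, 10.82 and 10.47 with Dex. All 5 Dex levels lie above all vehicle levels, and the 3 cultures of lower vehicle level moved by 2.84 to 3.00, the other 2 by 2.10 and 2.11. The rise was 2.58 ± 0.17 (5.97-fold, adjusted p = 0.000623), and 1.80 ± 0.56 with culture 4. The chloride channel gene Cftr went from 5.85, 4.37, 5.71, 6.19 and 6.25 to 7.25, 6.75, 8.10, 9.04 and 8.46, a rise of 2.25 ± 0.19 (adjusted p = 0.00228; 1.58 ± 0.49 with culture 4). Here too the groups do not overlap, although culture 1 moved least, by 1.40. The sodium channel gene Scnn1a, a classical steroid target in epithelia, did not pass (0.36 ± 0.21, higher in 3 of 5). Outside the list, Slc24a4, a potassium-dependent sodium/calcium exchanger, rose by 1.26 ± 0.16.

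Among 11 measured genes of the receptor and its chaperones, Fkbp5 alone rose (list median 0.02 without and with culture 4). Fkbp5 encodes a co-chaperone that lowers the receptor's affinity for hormone and is a feedback target. Its vehicle levels were 13.28, 13.61, 13.68, 13.52 and 13.54 and its Dex levels 14.66, 14.88, 15.18, 15.39 and 15.28. Both groups were tight and apart, and the rise was 1.55 ± 0.13 (2.93-fold, adjusted p = 0.00228), and 0.955 ± 0.43 with culture 4. Its relative Fkbp4, which favours receptor transport to the nucleus, differed by -0.29 ± 0.14 without passing. The receptor gene Nr3c1 differed by -0.28 ± 0.19 and was lower in 4 of 5 cultures (adjusted p = 0.663), from -1.04 in culture 5 to 0.40 in culture 3, and by -0.32 ± 0.17 with culture 4. Fkbp14, a prolyl isomerase of the endoplasmic reticulum and not of this complex, rose by 1.07 ± 0.14.

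Of the 10 anti-inflammatory targets measured, Tsc22d3 rose and none fell (list median -0.04, and -0.03 with culture 4). Tsc22d3 encodes GILZ, a leucine zipper protein that restrains NF-kappa-B and AP-1. Its levels went from 8.22, 8.50, 8.49, 7.70 and 7.44 to 9.66, 9.67, 10.56, 9.93 and 8.53. The culture 6 Dex level only just passes the highest vehicle level, so the groups almost touch, while within cultures the rise was 1.09 to 2.23 (mean 1.60 ± 0.19, adjusted p = 0.0152; 1.055 ± 0.41 with culture 4). Nfkbia, the inhibitor of NF-kappa-B, was higher in 5 of 5 cultures (0.86 ± 0.17) but varied from 0.18 to 1.35 and did not pass (adjusted p = 0.158). The lipocalin gene Lcn2 was higher by 1.27 to 1.43 in 4 cultures and lower by 0.27 in culture 5 (1.04 ± 0.24, adjusted p = 0.238). None of 17 inflammatory mediators passed (list median 0.07, and -0.01 with culture 4), among them the cytokine gene Tnf (-0.32 ± 0.15) and the prostaglandin synthase gene Ptgs2 (-0.57 ± 0.27).

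Transcription factors known as glucocorticoid-induced formed the list with the highest median, 0.46 (0.31 with culture 4), and 5 of 15 rose: Klf9, Per1, Hif3a, Cebpd and Zbtb16. Klf9, a zinc finger factor linked to quiescence of neural stem cells, went from 9.27, 9.37, 10.38, 8.45 and 9.19 to 11.00, 11.29, 12.58, 10.90 and 11.15 (2.05 ± 0.14, adjusted p = 0.000623; 1.385 ± 0.48 with culture 4). Its 5 rises were even, from 1.73 to 2.45. Zbtb16, which encodes the repressor PLZF, moved from 8.18, 8.80, 8.20, 7.95 and 8.17 to 9.92, 9.87, 9.97, 9.23 and 10.20 (1.58 ± 0.16, adjusted p = 0.00565; 0.925 ± 0.47 with culture 4), without overlap. Hif3a, a hypoxia-inducible factor subunit that can oppose its relatives, rose from 5.17 ± 0.35 to 6.72 ± 0.53 (SD, n = 5), and Cebpd, a basic leucine zipper factor of acute responses, from 8.02 ± 0.58 to 9.35 ± 0.76. With culture 4 the differences of Hif3a and Cebpd were 1.02 ± 0.38 and 0.845 ± 0.35. Klf15 (0.67 ± 0.13, adjusted p = 0.158) and Bcl6 (0.68 ± 0.17, adjusted p = 0.295) were higher in 5 of 5 cultures without passing. Outside the list, the homeobox gene Pknox2 rose by 1.13 ± 0.14 and the imprinted zinc finger gene Peg3 by 1.12 ± 0.12.

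In the circadian clock, 2 of 18 measured genes rose, both of them Period repressors (list median 0.04, and -0.02 with culture 4). Per1 levels were 8.94, 8.75, 10.11, 8.22 and 9.33 with vehicle and 11.27, 11.11, 12.02, 11.26 and 11.45 with Dex. Every Dex level lies above every vehicle level, and culture 5, the lowest before, moved most (3.04). The rise was 2.35 ± 0.17 (5.11-fold, adjusted p = 0.000812), and 1.503 ± 0.60 with culture 4. Per2 rose less, by 1.26 ± 0.11 (adjusted p = 0.00339), within the narrow span of 1.13 to 1.43; with culture 4 it differed by 0.88 ± 0.28. Arntl2, a partner of CLOCK related to Bmal1, was lower in 5 of 5 cultures (-0.93 ± 0.17, from -1.37 to -0.25) and did not pass (adjusted p = 0.123).

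**Figure D2:**
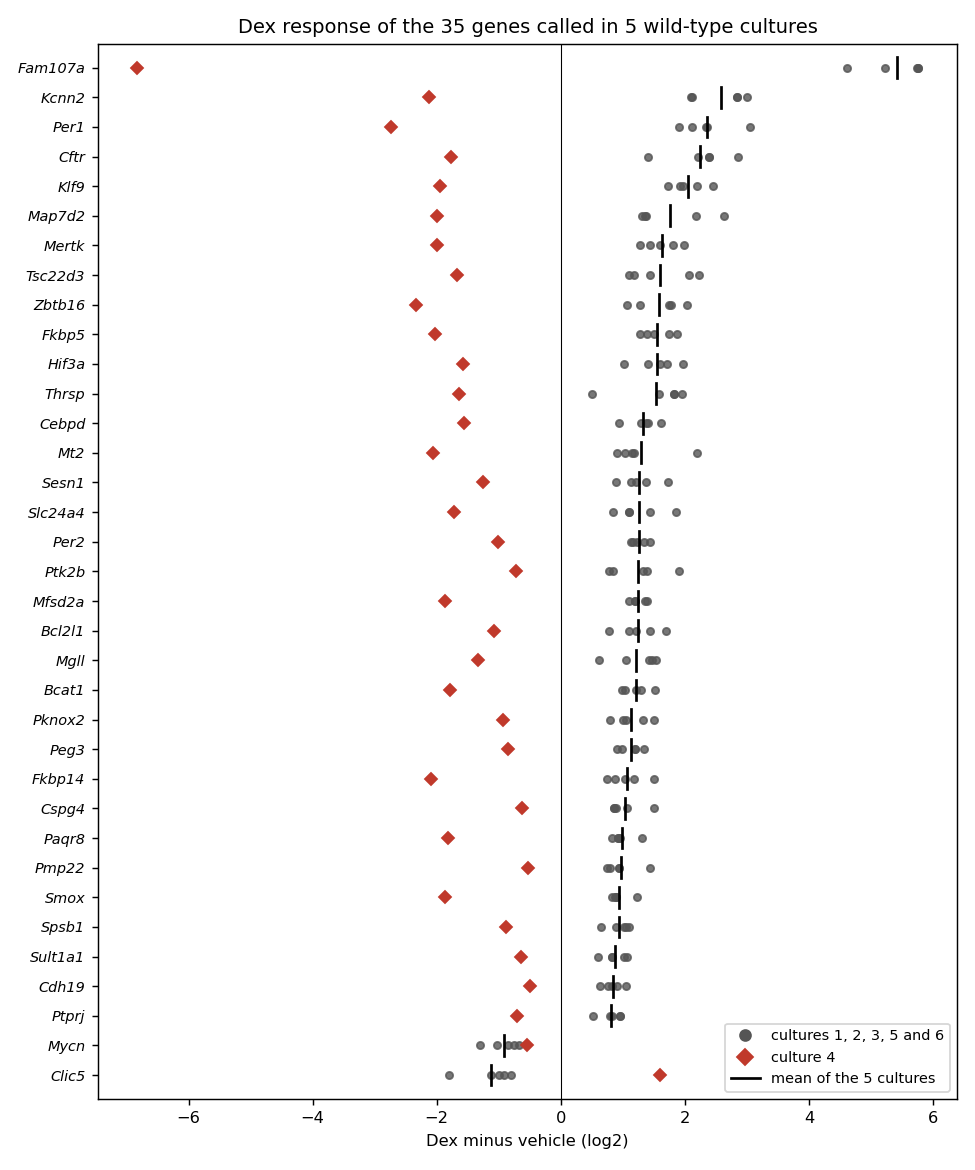
Dex minus vehicle (log2, x axis) of the 35 called genes, 1 row for each gene and 1 point for each WT culture. Points of cultures 1, 2, 3, 5 and 6 lie on one side of 0 for each gene, and those of culture 4 lie on the other side for all but Mycn.

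Among 10 genes of metal and redox handling, Mt2 rose (list median 0.03, and -0.03 with culture 4). This metallothionein gene, whose product binds zinc and copper, went from 16.87, 16.64, 17.11, 17.39 and 15.82 to 18.05, 17.78, 18.02, 18.42 and 18.01. Culture 6 started lowest and moved by 2.19, against 0.91 to 1.18 in the other 4, so the Dex levels are closer together than the vehicle levels (1.29 ± 0.19, adjusted p = 0.0384; 0.73 ± 0.42 with culture 4). Its near relative Mt1 was higher in 5 of 5 (0.55 ± 0.13, adjusted p = 0.221), and hybridisation between the pair was not tested.

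Metabolic targets gave 2 rises among 13 measured genes (list median 0.14, and 0.115 with culture 4), both in lipid handling. Mfsd2a, a transporter of lysophosphatidylcholine with its omega-3 fatty acid, moved by 1.09 to 1.38 in each culture (1.24 ± 0.11, adjusted p = 0.00339; 0.73 ± 0.37 with culture 4). Mgll, the lipase that breaks down the endocannabinoid 2-AG, rose by 1.22 ± 0.16 (0.79 ± 0.32 with culture 4). Lpin1, a phosphatidate phosphatase, was higher in 5 of 5 (0.62 ± 0.11, adjusted p = 0.132). Outside the list rose Thrsp, a regulator of lipogenesis (1.54 ± 0.21), Bcat1, which starts the breakdown of branched-chain amino acids (1.21 ± 0.13), the spermine oxidase gene Smox (0.94 ± 0.12) and the sulfotransferase gene Sult1a1 (0.87 ± 0.12). Thrsp moved by 1.58 to 1.95 in 4 cultures and by 0.50 in culture 6.

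Of 15 growth arrest and stress genes, Sesn1 rose (list median 0.09, and 0.07 with culture 4). Sestrin 1 restrains mTORC1 when amino acids are scarce, and its gene moved from 10.15, 10.19, 10.47, 9.67 and 9.59 to 11.04, 11.32, 12.19, 10.88 and 10.96 (1.26 ± 0.14, adjusted p = 0.0111; 0.845 ± 0.32 with culture 4). The cell cycle inhibitor gene Cdkn1a was higher in 5 of 5 (0.41 ± 0.12, adjusted p = 0.371). Sgk1, a kinase gene induced by glucocorticoids in many cells, differed by -0.04 ± 0.16, with 0.49 in culture 2, 0.15 in culture 5, and -0.63 in culture 3. The anti-apoptotic gene Bcl2l1, in none of the lists, rose by 1.24 ± 0.15.

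Adhesion, cytoskeleton and protease inhibitor genes had a median of -0.02 (-0.09 with culture 4), yet 3 of the 14 rose: Fam107a, Mertk and Map7d2. Mertk, a receptor kinase for the uptake of dying cells, rose by 1.62 ± 0.14, by 1.27 to 1.99 in single cultures, although its level varied so much between cultures (6.68 to 9.32 with vehicle) that the groups overlap. Map7d2, a microtubule-associated protein gene, rose by 1.76 ± 0.21, most in cultures 3 (2.62) and 5 (2.18). With culture 4 the differences of Mertk and Map7d2 were 1.02 ± 0.43 and 1.14 ± 0.47. The matrix protease gene Adamts9 was higher in 5 of 5 (1.02 ± 0.16) and missed the threshold (adjusted p = 0.0650). Other surface and signalling genes rose as well: Ptk2b, a calcium-sensitive kinase (1.25 ± 0.17), Paqr8, a membrane progestin receptor (0.99 ± 0.12), the myelin protein gene Pmp22 (0.97 ± 0.14), the ubiquitin ligase adaptor gene Spsb1 (0.94 ± 0.12), the cadherin gene Cdh19 (0.83 ± 0.12) and Ptprj (0.81 ± 0.12). Pmp22 shows what the pairing does, since its vehicle levels spread from 10.87 to 13.53 while it moved by 0.74 to 1.44 in each culture.

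The 2 genes that fell were Mycn and Clic5. Mycn, a Myc family gene that drives progenitor growth, went from 4.16, 4.78, 5.77, 4.08 and 4.63 to 3.48, 4.03, 4.74, 3.23 and 3.33. The groups overlap, but each culture was lower with Dex, by 0.68 to 1.30 (mean -0.92 ± 0.13, adjusted p = 0.0340). These are low levels, all below the median of all genes. Clic5, a chloride intracellular channel protein linked to the actin cortex, went from 6.97, 7.04, 6.99, 6.83 and 9.06 to 6.05, 6.04, 5.86, 6.02 and 7.26 (-1.13 ± 0.16, adjusted p = 0.0338). Culture 6 stood above the other 4 in both arms and moved most. With culture 4 the differences were -0.86 ± 0.12 for Mycn and -0.68 ± 0.34 for Clic5. Both calls ended in each of the 5 fits that left out a further culture (limma adjusted p 0.0958 to 0.180 for Mycn and 0.0501 to 0.162 for Clic5) and in the fit without the block. The filter on low means removed both genes. It also removed the risen genes Cftr, Hif3a, Ptk2b, Slc24a4 and Sult1a1, and the 28 called genes that it kept all passed. Of the 10 Myc network genes Mycn alone passed. Myc itself was lower in 5 of 5 cultures but unevenly, by 0.03 in culture 2 and 0.94 in culture 5 (-0.55 ± 0.17, adjusted p = 0.397), and the antagonist gene Mxd4 was higher in 5 of 5 (0.54 ± 0.12, adjusted p = 0.221).

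None of the 16 immediate early genes passed. None of them was higher in 5 of 5 cultures (5.03% of all genes), while 5 were lower in all (4.96% of all genes). Their median, -0.27 (-0.26 with culture 4), was the lowest of the lists (all genes 0.004). Nr4a3, an orphan nuclear receptor gene, differed by -0.71 ± 0.12 (adjusted p = 0.112), the AP-1 subunit gene Jun by -0.49 ± 0.13, Ier3 by -0.55 ± 0.16 and Ier2 by -0.49 ± 0.17. The 16 mitogen signalling genes had a median of -0.22 (-0.16 with culture 4), with Egfr, the receptor of the EGF in the medium, at -0.36 ± 0.12 and lower in 5 of 5, and Fgfr3 at 0.58 ± 0.12 and higher in 5 of 5. None of them passed.

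Cell cycle genes showed no call: none of 21 DNA replication genes (median -0.02), 19 mitosis genes (median 0.04) or 11 G1 genes (median 0.02) passed. With culture 4 these medians were -0.04, 0.065 and -0.08. In the Notch list the glycosyltransferase gene Lfng was higher in 5 of 5 (0.70 ± 0.12, adjusted p = 0.0964), and none of the 15 passed. In the Wnt and BMP list the feedback gene Axin2 was lower in 5 of 5 (-0.69 ± 0.19, adjusted p = 0.342), with none of 17 past the threshold. Proneural factors (13 genes, median -0.14) and cholesterol synthesis genes (12 genes, median 0.05) gave no call either. With culture 4 their medians were -0.10 and 0.04, that of the Notch list went from -0.05 to 0.03 and that of the Wnt and BMP list from -0.03 to 0.10.

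The 18 genes of neural stem and progenitor cells had a median of -0.17 (-0.11 with culture 4). None of them passed, 7 were lower in 5 of 5 cultures (4.96% of all genes) and none was higher in all (5.03%). Those of smallest p were the matrix gene Tnc (-0.61 ± 0.14), the RNA-binding protein gene Msi1 (-0.52 ± 0.14), the glial fate factor gene Sox9 (-0.56 ± 0.16) and Egfr. Sox2 differed by -0.52 ± 0.21 (adjusted p = 0.493), mostly in culture 5 (-1.54), against -0.03 to -0.63 in the other 4, and by -0.44 ± 0.19 with culture 4. Astrocyte genes (12) had a median of 0.11 (0.06 with culture 4) with no call. Cspg4, the NG2 proteoglycan gene of oligodendrocyte precursors and pericytes, rose by 1.03 ± 0.14 and was the only call among the 10 oligodendrocyte-lineage and the 11 mural genes; other members of those lists did not pass. No neuron, microglia, endothelial or ependymal gene passed.

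**Figure D3:**
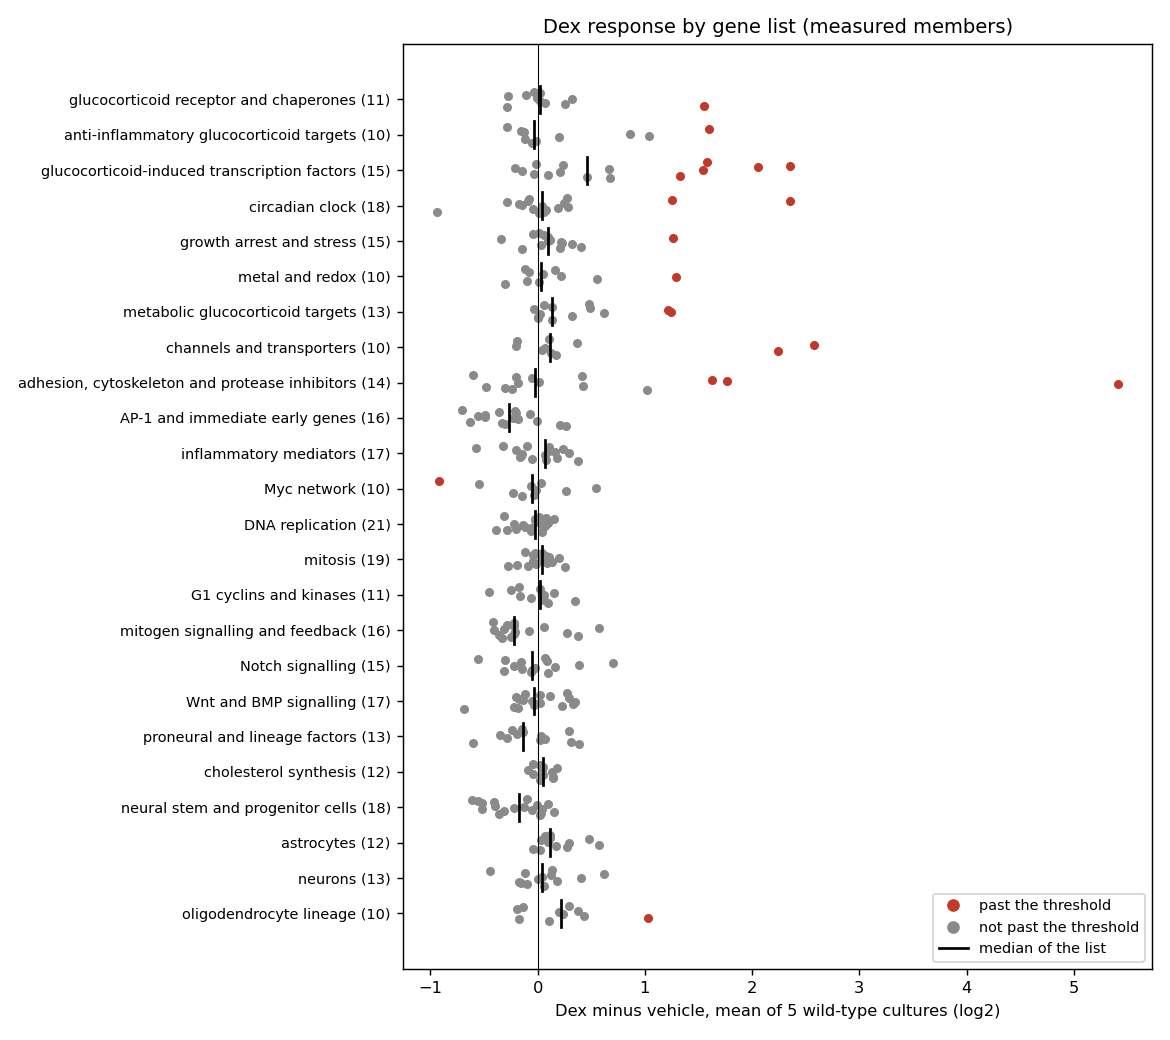
Dex minus vehicle (log2, x axis) in 5 WT cultures for the measured members of each gene list, with the list median marked. Points far to the right belong to single genes of a list, and list medians stay between -0.27 and 0.46.

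Culture 4 had been set aside because its response was known to run opposite. Its values were not in the fit that called the 33 risen genes. Leaving it out shaped that list, since the fit with it called 0 genes. Counts over the 33 are therefore not independent of that choice and are given without a test. Culture 4 gave a lower value on its array labelled Dex than on that labelled vehicle for all 33, against 48.3% of all genes. The difference was 1 unit or more in 24 of them (1.09% of all genes), with a median of -1.67 and a range of -6.83 to -0.49. Against the other cultures, its vehicle-labelled array was above the 5 other vehicle arrays in 24 genes (19.1% of all genes) and its Dex-labelled array below the 5 other Dex arrays in 24 (28.7%). Both held in 18 (0.856%). The vehicle-labelled array lay within the range of the other Dex arrays in 20 of the 33 and was nearer their mean than the vehicle mean in 26. The Dex-labelled array lay within the range of the other vehicle arrays in 25 and was nearer their mean in 33. For these counts of range and nearness the share over all genes was not worked out, so they only describe the 33. Of the genes that fell, Clic5 was higher by 1.60 on the Dex-labelled array, where 50.5% of all genes were higher by any amount, and Mycn lower by 0.54. The 2 arrays of culture 4 resembled each other most, as in every WT culture (correlation after removal of group means 0.73, against 0.49 to 0.61 in the others). Across all 19505 genes, which are not independent, the differences of culture 4 correlated at -0.13 to -0.06 with those of the other cultures, which correlated at -0.04 to 0.18 with each other. What sets culture 4 apart was not tested.

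**Figure D4:**
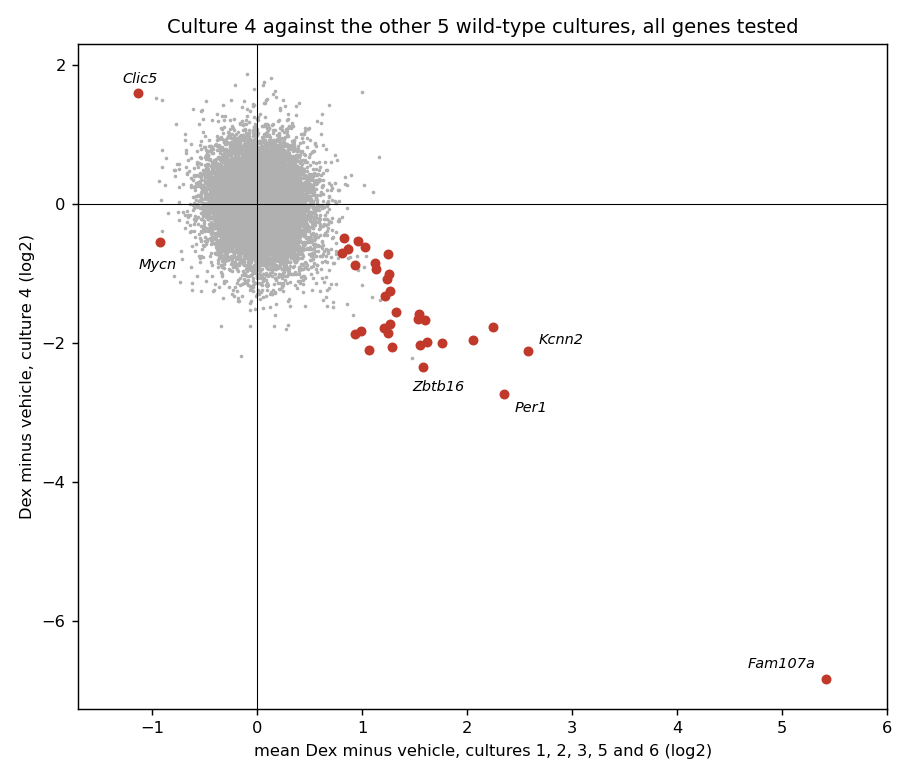
Dex minus vehicle (log2) in culture 4 (y axis) against the mean of the other 5 WT cultures (x axis), with all genes in grey and the 35 called genes in red. The 33 risen genes lie in the lower right, down to Fam107a at -6.83, and the bulk of genes forms a cloud around 0.

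With culture 4 included, the paired limma test called no gene (0% of those tested). An unadjusted p under 0.05 was reached by 1473 genes (7.55%), against 1903 (9.76%) without culture 4. Of the 33 genes, 25 reached it. Over all 33 the fitted differences ran from 0.47 (Smox) to 3.38 (Fam107a). Their errors widened: the median SE of the 33 was 0.36 with culture 4 and 0.14 without, while over all genes it was 0.14 and 0.15. The smallest adjusted p was 0.589, a value shared by 233 genes. The smallest unadjusted p belonged to Mycn (-0.86 ± 0.12, n = 6), the called gene that moved the same way in all 6 cultures. After it came the cytokine gene Tnfsf18 (-0.72 ± 0.13), Ccdc192 (0.58 ± 0.11), the bromodomain gene Brdt (0.61 ± 0.11), the calcium-binding protein gene Scgn (0.67 ± 0.13), the casein gene Csn3 (0.74 ± 0.14), Lgi2 (-0.66 ± 0.13), Ceacam11 (0.89 ± 0.18), the protocadherin gene Pcdh8 (-0.53 ± 0.11) and 1 predicted locus. In 6 of 6 cultures 403 genes were higher (2.07%) and 411 lower (2.11%).

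The 7 SOX2 KO cultures share no array with the WT cultures. In them the mean difference of all 33 genes was above 0, as for 45.4% of all genes. Of the 33, 27 were higher in 7 of 7 cultures, against 1.01% of all genes. In the fit of both genotypes without culture 4, 25 of the 33 rose in SOX2 KO, where 46 genes in all rose (0.236%) and 3 fell (0.0154%). With culture 4 in that fit, whose spread enters the shared error, 14 genes rose (0.0718%), among them 7 of the 33: Cftr, Klf9, Fkbp5, Hif3a, Mt2, Mgll and Pmp22. The 8 that did not pass in SOX2 KO without culture 4 were Cebpd, Slc24a4, Ptk2b, Bcl2l1, Cspg4, Spsb1, Sult1a1 and Cdh19. Cdh19 ranged from -2.0 to 1.21 there, and Slc24a4 averaged 0.38 ± 0.17, against 1.26 in WT. The 33 genes were chosen on their WT values, which favours larger effects in WT than in SOX2 KO. Of the genes that fell in WT, Mycn differed by -0.34 ± 0.13 and was lower in 7 of 7 (1.49% of all genes), and Clic5 by -0.33 ± 0.21 with a range of -1.40 to 0.72. Neither passed. Sgk1 was higher in 7 of 7 (0.51 ± 0.16, adjusted p = 0.349).

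The difference between the genotypes' Dex effects was tested directly, and no gene passed (0%), with 688 genes (3.53%) at an unadjusted p under 0.05 in all cultures and 644 (3.30%) without culture 4. In the latter fit the smallest p belonged to Hif3a, larger in SOX2 KO by 1.37 ± 0.28 (unadjusted p = 0.000147), then Ceacam11 (-1.13 ± 0.23), Zscan5b (0.94 ± 0.21), Arntl2 (1.00 ± 0.23) and the apoptosis gene Bad (-0.85 ± 0.20), each with an adjusted p of 1.00. None of the other WT-called genes passed, and their selection on WT values favours larger effects in WT. For those of smallest p, the effect in SOX2 KO differed from that in WT by 1.10 ± 0.30 for Mt2, -0.77 ± 0.22 for Ptk2b and -0.87 ± 0.25 for Fam107a. Next came Slc24a4 (-0.88 ± 0.27), Fkbp5 (0.64 ± 0.21), Mycn (0.58 ± 0.20) and Kcnn2 (-0.88 ± 0.32). With culture 4 these differences were 1.66 for Mt2, -0.44 for Ptk2b, -0.38 for Slc24a4 and 1.24 for Fkbp5. They were 0.52 for Mycn, -0.09 for Kcnn2 and 1.17 for Fam107a, whose sign turns, and none passed.

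**Figure D5:**
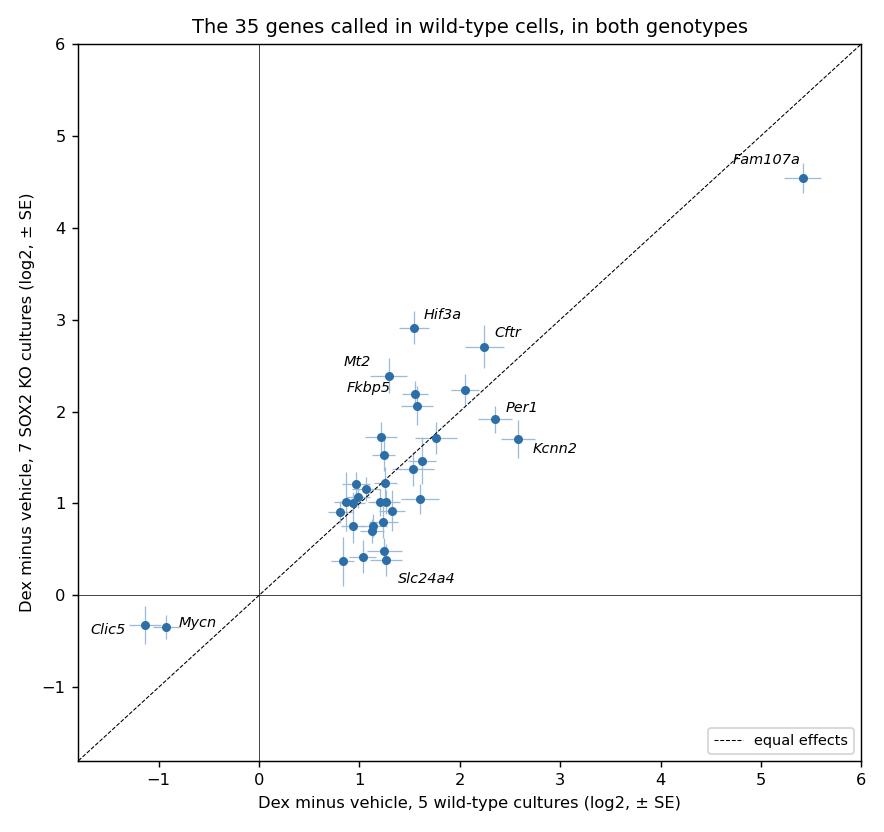
Dex minus vehicle (log2, ± SE) of the 35 genes called in WT cells, in 5 WT cultures (x axis) and in 7 SOX2 KO cultures (y axis, fit without culture 4), with the line of equal effects. All points lie on the same side of 0 in both genotypes, Hif3a and Mt2 above the line and Fam107a and Kcnn2 below it.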

How the data were processed

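Biotin-labelled RNA of 6 WT and 7 SOX2 KO cultures, each with vehicle and with Dex, was read on 26 one-colour arrays. Values are the authors' deposited table, read as log2 from their range; the base, the normalization and the array software are not given in the sources used here. Of 22206 transcript clusters, 19572 carry 1 symbol, none several and 2634 none, per the platform annotation. Where a gene had several (55 genes), the one of highest mean was kept, which left 19505 genes. The number of arrays limits the precision.

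Dex minus vehicle was fitted with limma 3.58.1 in R 4.3.3 (lmFit, eBayes), with the culture as a block and Benjamini-Hochberg adjustment over all genes (threshold 0.05, no fold minimum). The SE of a difference is limma's moderated SE, which draws each gene's variance toward that of all genes. It is not the SE of the single culture differences. The WT results use WT arrays only; SOX2 KO values and the difference between genotypes come from a fit of all arrays. The labels number the cultures and keep those of each animal separate, and each of the 12 WT arrays correlated best with its own partner (0.49 to 0.73), which is the pairing used. In culture 1 the margin was narrow, since the closest other Dex array also stood at 0.49. Scripts were tested on simulated data.

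Members and lists were chosen with earlier results of these data known, so lists are described without a test. Genes named are those called in 5 cultures, the 10 of smallest p in 6 cultures, the 5 of smallest p in the difference, up to 4 members of smallest p of each list described, and a fixed group of known targets. Predicted loci were counted, not named. Alternatives were other scaling, a filter on low means, another variance prior, no block, all arrays, averaging the transcript clusters of a gene, and leaving out cultures. Promoter sequences are RefSeq's (GRCm38.p6).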

Additional observations from a re-analysis of the deposited data

Results flagged for a closer look

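Single cultures were set against the others of their group for 38 genes, the 35 called in WT cells and 3 that were not called (Sgk1, Nr3c1 and Sox2). The gap to the nearest culture, as a share of the whole range, was large for culture 4 in 32 of them over 6 cultures. Chance gives such a gap in about 1 of 20 groups of values that were not selected. That rate does not apply here, since culture 4 was known to run opposite and the genes were called for their agreement in the other 5, so the 32 values are a description of 1 pair of arrays.

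Dex minus vehicle in culture 4 was at or below -2 for Fam107a (-6.83), Per1 (-2.74), Zbtb16 (-2.34), Kcnn2 (-2.12), Fkbp14 (-2.10), Mt2 (-2.06), Fkbp5 (-2.03) and Map7d2 (-2.0). It lay between -2 and -1 for Mertk (-1.99), Klf9 (-1.95), Smox (-1.87), Mfsd2a (-1.86), Paqr8 (-1.82), Bcat1 (-1.78), Cftr (-1.77), Slc24a4 (-1.73), Tsc22d3 (-1.67), Hif3a (-1.58), Cebpd (-1.56), Mgll (-1.33), Sesn1 (-1.25), Bcl2l1 (-1.08) and Per2 (-1.01). It lay between -1 and 0 for Pknox2 (-0.94), Spsb1 (-0.88), Peg3 (-0.85), Ptprj (-0.70), Sult1a1 (-0.64), Cspg4 (-0.62), Pmp22 (-0.53) and Cdh19 (-0.49). Clic5, lower with Dex elsewhere, was higher by 1.60. The plot of the 35 called genes sets each beside the other cultures.

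Among the other 5 cultures, 5 genes had 1 culture apart from the other 4. Culture 6 moved most for Mt2 (2.19), Pmp22 (1.44) and Smox (1.22) and least for Thrsp (0.50), and culture 5 moved most for Paqr8 (1.31). All 5 genes were higher in each of these cultures.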

How the results depend on the processing

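In the 6 cultures, leaving out each culture gave 0 to 35 calls, with 35 without culture 4 and 0 in limma without any other (1029 to 1599 genes at an unadjusted p under 0.05). Each other setting gave 0 there as well (263 to 1504 genes). In the 5 cultures, leaving out a further culture gave 13 to 19 calls: 13 without culture 1, 18 without culture 2, 14 without culture 3, 16 without culture 5 and 19 without culture 6. Through all of these, 12 genes passed (Cebpd, Cftr, Fam107a, Fkbp5, Hif3a, Kcnn2, Klf9, Mertk, Mfsd2a, Per1, Per2 and Zbtb16). Without the replicate block, 5 genes passed, and 7 with all arrays of both genotypes, a fit added after the data were seen. A filter on genes of low mean gave 91 calls (69 higher, 22 lower) and a trended and robust prior 158 (107 higher, 51 lower). Fam107a, Fkbp5, Kcnn2 and Per1 passed in every alternative. Quantile normalization and median centring gave 35 each (32 higher, 3 lower), moving the all-gene median to -0.0047 and -0.02. The difference between genotypes gave 0 calls in every setting run (140 to 887 genes at an unadjusted p under 0.05).

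Sgk1 turned to 0.10 (5 cultures) and 0.078 (6 cultures) without culture 3, over ranges of -0.18 to 0.10 and -0.15 to 0.078 when each culture was left out. Medians of 4 lists moved beyond the spread between cultures in the same way, and the cause was not tested. In 5 cultures the metal and redox list ranged from -0.005 (without culture 6) to 0.17 (without culture 1) and the proneural list from -0.27 (without culture 2) to 0.0025 (without culture 5). In 6 cultures the Wnt and BMP list ranged from -0.03 (without culture 4) to 0.11, the proneural list from -0.18 to 0 (without culture 5) and the ependymal list from 0.042 (without culture 6) to 0.22.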

Other observations

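Genes lower with Dex were few in the fit used in the report and more numerous when limma's variance prior was allowed to follow the expression level (158 calls, 0.810% of genes, 51 of them lower, 0.261%). In the gene lists, 3 of the 18 neural stem and progenitor genes were among the 51 (Tnc at -0.61, Sox9 at -0.56 and Msi1 at -0.52), 2 of the 10 Myc network genes (Mycn and Myc, -0.55), 1 immediate early gene (Nr4a3, -0.71) and 1 clock gene (Arntl2, -0.93). No mitogen signalling, replication, mitosis or G1 gene was. These calls depend on the prior, and with the filter on low means instead 16 of the 51 passed. In that limma fit Nr4a3 passed (adjusted p = 0.0212). Tnc (adjusted p = 0.0532), Sox9 (0.137), Msi1 (0.126) and Myc (0.183) did not, and the filter removed Mycn and Arntl2. Outside the lists, and chosen after their values were seen, were Zfp36l1 (-0.68) and Zfp36l2 (-0.47), which encode binders of AU-rich mRNA, the secretogranin gene Scg2 (-0.96) and the phosphodiesterase gene Pde1b (-0.91). Each of the 51 was lower in 5 of 5 cultures, which their selection favours.

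In the SOX2 KO cultures the mean of 46 of the 51 was below 0, as for 54.6% of all genes, 13 were lower in 7 of 7 cultures (1.49% of all genes), and 3 passed there in the fit without culture 4: Pde1b, the neurexin-family gene Cntnap4 and the homeobox gene Prrx1. Of the 107 higher genes, 54 were higher in 7 of 7 SOX2 KO cultures (1.01% of all genes), 27 of them among the 33 of the report. The 107 also held Nfkbia (0.86), Lcn2 (1.04), Adamts9 (1.02), Lfng (0.70), Lpin1 (0.62) and Fgfr3 (0.58), which did not pass in the fit used in the report.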
